A study of Homo sapiens with 5 samples.

Results

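REH is a cell line from a human B cell precursor leukaemia with a fusion of ETV6 and RUNX1 (TEL-AML1). It was transplanted into mice, and RNA was sequenced from cells that were taken back out of the brain (its leptomeninges) or the spleen. Described here are 10 genes of the NRF2 response, glutathione supply and iron handling, namely NFE2L2, NQO1, HMOX1, GCLM, GCLC, TXNRD1, SLC7A11, TFRC, FTH1 and FTL. They were chosen by name, with earlier results of these data known. They were matched by Ensembl identifier to the deposited human gene table, and are 10 of its 65217 identifiers. All 10 were in the table and all 10 passed the filter on low counts that left 20419 genes to test.

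Both groups were REH cells grown in NSG mice (NOD.Cg-PrkdcscidIl2rgtm1Wjl/SzJ), hosts of 6 to 10 weeks of age that lack mature lymphocytes but keep their own myeloid, erythroid and stromal cells. The brain group had 3 libraries and the spleen group had 2, each made from RNA of 5 mice combined after density gradient purification. The experiment was run on 3 occasions, and spleen replicate 3 did not pass the submitters' quality control. Because mice were pooled and 1 line was used, p-values measure the spread between pools and not between animals. In such bulk RNA, lower RNA per cell cannot be told apart from fewer cells with the RNA.

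NRF2, the product of NFE2L2, is a transcription factor that KEAP1 and the CUL3 ligase keep at a low level until electrophiles or oxidants release it. It then pairs with small MAF proteins on antioxidant response elements of genes such as NQO1, HMOX1, GCLC, GCLM, TXNRD1 and SLC7A11, while BACH1 competes for the same elements. Ferritin and transferrin receptor are controlled mainly after transcription, by iron regulatory proteins that bind a hairpin called the iron-responsive element: in the 5′ UTR of ferritin mRNA binding blocks translation, and in the 3′ UTR of TFRC mRNA it protects the transcript. A cell short of iron therefore holds more TFRC mRNA and makes less ferritin protein.

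These hairpins are shown because the iron genes of the list carry them and because TFRC was one of the members that changed. Each is 27 bases of a GENCODE 44 canonical transcript (GRCh38), with the 6 bases of the loop in capitals.
FTH1 element 1, 5′ UTR, chr11:61967575-61967601, minus strand: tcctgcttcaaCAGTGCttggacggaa
FTL element 1, 5′ UTR, chr19:48965336-48965362, plus strand: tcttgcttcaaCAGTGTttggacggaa
TFRC element 1, 3′ UTR, chr3:196050980-196051006, minus strand: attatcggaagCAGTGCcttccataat
TFRC element 2, 3′ UTR, chr3:196050576-196050602, minus strand: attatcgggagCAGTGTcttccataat
TFRC element 3, 3′ UTR, chr3:196050511-196050537, minus strand: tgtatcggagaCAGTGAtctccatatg
TFRC element 4, 3′ UTR, chr3:196050464-196050490, minus strand: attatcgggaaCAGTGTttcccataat

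The search took a C, 5 bases, CAGTG, 1 base other than G, and 5 bases able to pair with the earlier 5 (G-T pairs allowed), on the transcript strand. The ferritin elements were identical at 25 of 27 bases. A match within the first 300 bases, as in FTH1 and FTL, was found in 14 of 19617 canonical protein-coding transcripts of at least that length (0.071%). TFRC was the single transcript of 19701 with 4 matches within 800 bases. The pattern misses elements with an imperfect stem or another loop, so these 4 need not be all that TFRC carries. The other members had no match, which says only that these letters are not in their canonical transcripts.

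Library totals ran from 38387991 to 48764202 estimated counts on human genes. B lineage markers, read as a check of the label, had counts for 9 of 10 genes and summed to 7049 to 7310 CPM (counts scaled to 1e+06 per TMM-adjusted library) in brain libraries and 7320 to 7696 in spleen libraries, with VPREB1 at 0 in all 5. Human erythroid markers summed to 3.42 to 4.18 CPM in brain and 3.35 to 3.39 in spleen, with AHSP at 0 in all 5 libraries and HBB at 0 except for 1 count in spleen library 1, and human T cell markers stayed under 0.75 CPM in every library. Human myeloid markers summed to 96.3 to 123 CPM in brain and 83.0 to 105 in spleen, mostly AIF1 and MPO. Human neural and glial markers summed to 18.6 to 20.2 CPM in brain and 15.3 to 17.9 in spleen, with SNAP25 at 0 in all 5. The endothelial list stood at 12.2 to 19.2 CPM in brain and 2.84 to 3.03 in spleen, mostly PECAM1, and its part in the results below was not tested. Reads assigned to mouse transcripts made up 5.70%, 2.58% and 2.64% of the estimated counts in brain libraries 1 to 3, and 6.33% and 8.87% in spleen libraries 1 and 2 (exact two-sided permutation p = 0.2, the smallest that 3 against 2 libraries allows).

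Of the 10 members, TFRC was higher and NQO1 lower in brain, and 8 did not pass an adjusted p of 0.05 (edgeR quasi-likelihood test, Benjamini-Hochberg over all 20419 genes). Over all genes tested, 9.51% were called, 6.01% higher and 3.50% lower, and a count of 2 in 10 members differs from that share by about 1 gene. The median log2 fold change of the members was 0.17, against 0.0066 over all genes. The sites did not overlap for 6 members, where 42.8% of all genes tested did not. All brain libraries lay above all spleen libraries for 5 of them (NFE2L2, GCLC, TXNRD1, TFRC and FTL; 23.3% of all genes) and below them for NQO1 (19.5% of all genes).

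**Figure D1:**
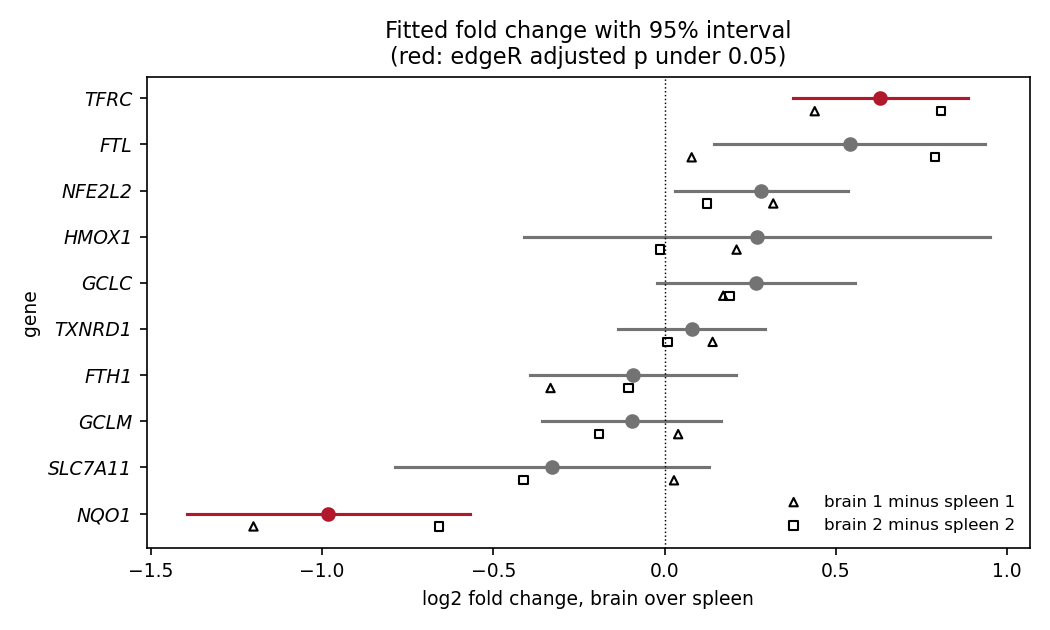
Fitted log2 fold change of each member, brain over spleen, with its 95% interval (circles and bars; red where the edgeR adjusted p was under 0.05), and the log2 CPM differences within occasions 1 and 2 (open symbols). TFRC at 0.63 and NQO1 at -0.98 are the red pair, and the intervals of FTL (0.14 to 0.94) and NFE2L2 (0.03 to 0.53) exclude 0 without an adjusted p past the threshold.

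TFRC (ENSG00000072274, chr3:196012511-196082153, minus strand) encodes the transferrin receptor, which takes iron-loaded transferrin into the cell. It stood at 189.8, 202 and 201 CPM in brain libraries 1 to 3, against 140.1 and 115 CPM in spleen libraries 1 and 2. The brain libraries lay close together and all above both spleen libraries. The fold change was 1.55 (95% interval 1.30 to 1.85), a log2 fold change of 0.63 with an SE of 0.113 (edgeR adjusted p = 0.012). Occasions are taken from the replicate numbers in the sample titles, but the deposited spleen columns carry the numbers 2 and 4 for replicates 1 and 2, so which libraries share an occasion is uncertain here and for the members below. On the titles' numbers, brain exceeded spleen by 0.44 on the log2 scale within occasion 1 and by 0.81 within occasion 2. The call was kept when any 1 library was left out (edgeR adjusted p up to 0.0479), with log2 fold changes of 0.49 without spleen replicate 2 and 0.77 without spleen replicate 1. With the mouse share as a covariate the log2 fold change was 0.415 and the edgeR adjusted p 0.379.

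The canonical TFRC transcript, which carries the 4 elements printed above, gave 68.2%, 61.05% and 60.6% of the gene's TPM in brain and 60.6% and 60.9% in spleen. Its share therefore overlapped between the sites while the gene's level did not.

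NQO1 (ENSG00000181019, chr16:69706996-69726668, minus strand), a quinone reductase and a standard readout of NRF2 activity, was the lower member. It had 151, 221 and 170 estimated counts in the brain libraries, against 391 and 356 in the spleen libraries. On the CPM scale these were 3.87, 4.47 and 3.78 in brain, against 8.91 and 7.06 in spleen, with no overlap between the sites. The fold change was 0.51 (95% interval 0.38 to 0.67), or -0.98 ± 0.182 (SE) as a log2 fold change (edgeR adjusted p = 0.0137). On the titles' numbers the log2 difference was -1.20 within occasion 1 and -0.66 within occasion 2. NQO1 lost its call without brain replicate 1 (log2 fold change -0.95, edgeR adjusted p = 0.0637) and without spleen replicate 1 (-0.81, 0.076). With the mouse share as a covariate the log2 fold change was -1.24 and the edgeR adjusted p 0.162.

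HMOX1 (ENSG00000100292, chr22:35380361-35394214, plus strand), the inducible haem oxygenase that releases iron from haem, was the least abundant member. It had 31, 36 and 47 estimated counts in brain and 30 and 37 in spleen. The sites overlapped, and the fold change of 1.20 had a 95% interval from 0.75 to 1.93 (edgeR adjusted p = 0.64), so the direction of any change was not resolved.

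NFE2L2 itself (ENSG00000116044, chr2:177218667-177392756, minus strand) was at 52.5, 44.9 and 54.6 CPM in brain, against 42.1 and 41.2 CPM in spleen. The brain libraries were all higher, yet the gap between brain library 2 and spleen library 1 was smaller than the spread among brain libraries. Its fold change of 1.22 (95% interval 1.02 to 1.45) did not pass (edgeR adjusted p = 0.152). The annotated span of NFE2L2 overlaps those of AGPS and HNRNPA3 on the opposite strand, by an extent not read here. The strand setting of the counting is not given in the sources used here.

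The enzyme that starts glutathione synthesis has a catalytic subunit, GCLC, and a modifier subunit, GCLM. GCLC (ENSG00000001084, chr6:53497341-53616970, minus strand) stood at 17.1, 16.5 and 19.9 CPM in brain, against 15.2 and 14.5 CPM in spleen. GCLM (ENSG00000023909, chr1:93885199-93909456, minus strand) stood at 17.4, 15.6 and 15.8 CPM in brain, against 16.9 and 17.8 CPM in spleen. The first did not overlap between the sites and the other did, and neither passed, with edgeR adjusted p of 0.227 for GCLC and 0.666 for GCLM. Their fold changes had 95% intervals of 0.99 to 1.47 for GCLC and 0.78 to 1.12 for GCLM. The GCLC count could not be checked against its transcripts. When gene counts were summed from transcripts that match GENCODE 44, it kept 93.6 to 146 counts a library of 668 to 897. None of these matched transcripts was the canonical one, so the sum covers a minor part of the gene. Its log2 fold change of 0.03, in place of 0.27, describes only that part.

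SLC7A11 (ENSG00000151012, chr4:138164097-138242349, minus strand) encodes the light chain of the cystine importer that feeds glutathione synthesis. Brain library 1 held 44.4 CPM, brain library 2 held 30.1 and brain library 3 held 25.5, against 43.5 and 40.1 CPM in spleen libraries 1 and 2. Brain library 1 exceeded both spleen libraries while brain libraries 2 and 3 lay below them. Brain library 1 also had the highest mouse share of the brain libraries, 5.70%, against 6.33% and 8.87% in spleen libraries 1 and 2. A link between mouse share and SLC7A11 was not tested. The log2 fold change was -0.33 (95% interval -0.79 to 0.13, edgeR adjusted p = 0.352), -0.59 without brain replicate 1, -0.17 without brain replicate 3, and 0.14 with the mouse share as a covariate. Within occasion 1 the difference was 0.03 and within occasion 2 it was -0.41.

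TXNRD1 (ENSG00000198431, chr12:104215779-104350307, plus strand) encodes cytosolic thioredoxin reductase, a selenoprotein that keeps thioredoxin reduced. It was at 256, 237 and 248 CPM in brain, against 233 and 235 CPM in spleen. Spleen library 2 and brain library 2 were nearly level, and the fold change of 1.06 had a 95% interval of 0.91 to 1.23 (edgeR adjusted p = 0.669). Its count is uncertain: 7 of its transcript names occur in up to 38 records each in the transcript tables. The transcripts summed to 7313 to 9052 counts a library, against 10001 to 11861 in the gene table. Summed that way, its log2 fold change was 0.24 in place of 0.08 (edgeR adjusted p = 0.218).

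Ferritin stores iron in a shell of heavy chains (FTH1), which oxidise it, and light chains (FTL), which help it to form a mineral core. FTL (ENSG00000087086, chr19:48965309-48966879, plus strand) stood at 261, 301 and 356 CPM in brain, against 247 and 174 CPM in spleen. All brain libraries were higher, but the spleen libraries were further apart than brain library 2 was from spleen library 1, and the fold change of 1.45 (95% interval 1.10 to 1.91) did not pass (edgeR adjusted p = 0.0904). FTL passed without spleen replicate 1 (log2 fold change 0.81, edgeR adjusted p = 0.0332), and its log2 fold change was 0.31 without spleen replicate 2 and 0.01 with the mouse share as a covariate, against 0.54 with all libraries. Its difference was 0.08 within occasion 1 and 0.79 within occasion 2.

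FTH1 (ENSG00000167996, chr11:61959718-61967634, minus strand) stood at 413, 459 and 555 CPM in brain, against 520.5 and 494 CPM in spleen. The sites overlapped, with brain libraries 1 and 2 below both spleen libraries and brain library 3 above them (log2 fold change -0.09, 95% interval -0.39 to 0.21, edgeR adjusted p = 0.729). Its 25 annotated pseudogenes held between 0.163% and 0.328% as many counts as FTH1 in each library, and the 16 pseudogenes of FTL between 0.0393% and 0.0922% as many as FTL, so little signal was assigned to them.

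Levels can be compared between genes only per length, here as CPM per kilobase of the canonical transcript. On that scale FTH1 averaged 395 in brain and 421 in spleen, and FTL averaged 351 in brain and 242 in spleen. TXNRD1 followed with 64.0 in brain and 60.6 in spleen, TFRC with 39.4 in brain and 25.5 in spleen, and NFE2L2 with 20.7 in brain and 17.0 in spleen. These 5 kept that order in every library, although on this scale brain libraries of FTH1 and FTL overlapped in range. GCLC, SLC7A11 and GCLM formed a group between 2.64 and 5.27 in brain and between 3.47 and 4.51 in spleen. NQO1 averaged 1.60 in brain and 3.17 in spleen, and HMOX1 was last in all libraries, at 0.55 in brain and 0.46 in spleen. The order among GCLM, SLC7A11 and NQO1 differed between scales. The canonical transcript held a mean of 32.4% of the TPM of GCLM, 11.1% of that of NQO1 and 4.25% of that of FTH1. By TPM over all matched transcripts, a scale added after seeing the data, GCLM was at 8.76, 9.44 and 10.1 in brain and 8.97 and 12.1 in spleen. SLC7A11 was at 6.46, 4.62 and 3.68 TPM in brain and 6.05 and 6.73 in spleen, below GCLM in every library, whereas per kilobase it lay above GCLM in both spleen libraries. NQO1 was at 4.09, 4.56 and 4.26 TPM in brain and 9.14 and 8.10 in spleen. On both scales NQO1 lay below GCLM in every brain library and overlapped it in spleen, while its place beside SLC7A11 differed between the scales. FTH1 was at 822, 933 and 1032 TPM in brain and FTL at 474, 568 and 650, so by TPM their brain libraries did not overlap.

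**Figure D2:**
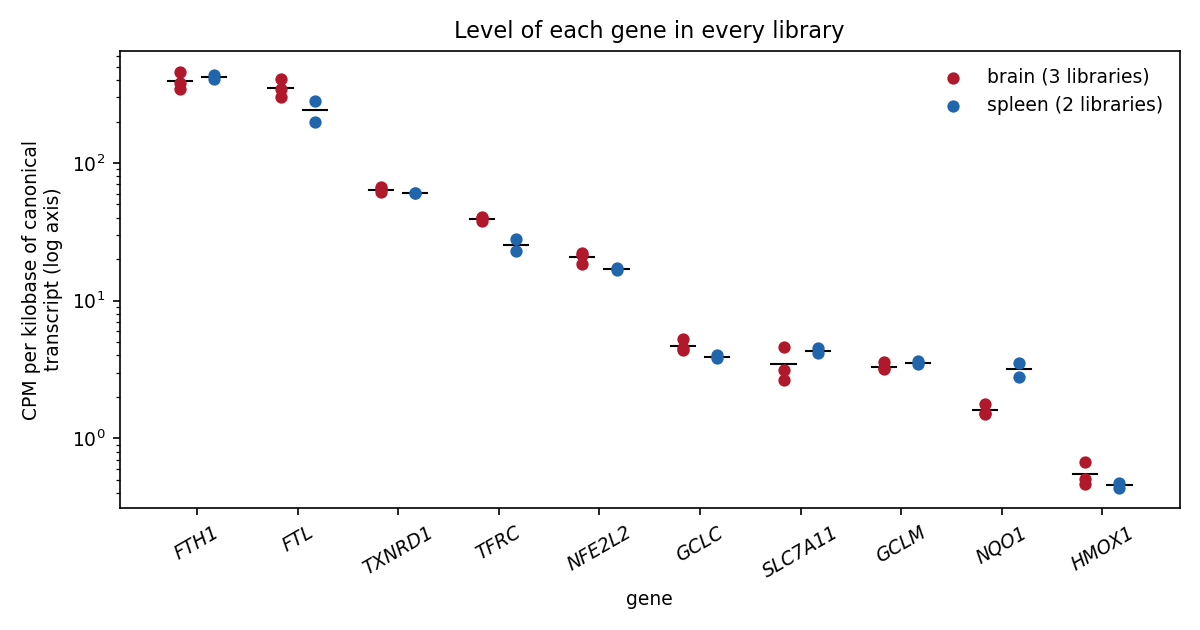
Level of each gene in every library as CPM per kilobase of canonical transcript (log axis), brain libraries in red and spleen libraries in blue, with bars at the group means. The ferritin chains lie above 199 in all 5 libraries, and NQO1 lies below GCLM in brain (means 1.60 and 3.33) and beside it in spleen (3.17 and 3.56).

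Ratios between members within a library do not depend on how libraries were scaled. FTH1 to FTL, as a ratio of TPM, was 1.73, 1.64 and 1.59 in brain libraries 1 to 3, against 2.18 and 3.00 in spleen libraries 1 and 2. The brain libraries agreed closely and lay below both spleen libraries, which differed from each other by more than brain did from spleen library 1. TFRC to FTH1 was 0.0747, 0.0769 and 0.0594 in brain, against 0.0459 and 0.0431 in spleen, also without overlap. TFRC to FTL did overlap, at 0.13, 0.126 and 0.0942 in brain and 0.0999 and 0.13 in spleen. GCLC to GCLM, as a ratio of estimated counts, was 0.984, 1.06 and 1.26 in brain, against 0.898 and 0.814 in spleen. With GCLC and GCLM summed from matched transcripts, chosen after seeing the data, that ratio was 0.137, 0.18 and 0.202 in brain and 0.15 and 0.163 in spleen, which overlapped. That sum leaves out the canonical GCLC transcript and most GCLC counts, so it does not check the ratio of gene counts. These ratios are given as descriptions, with no test.

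**Figure D3:**
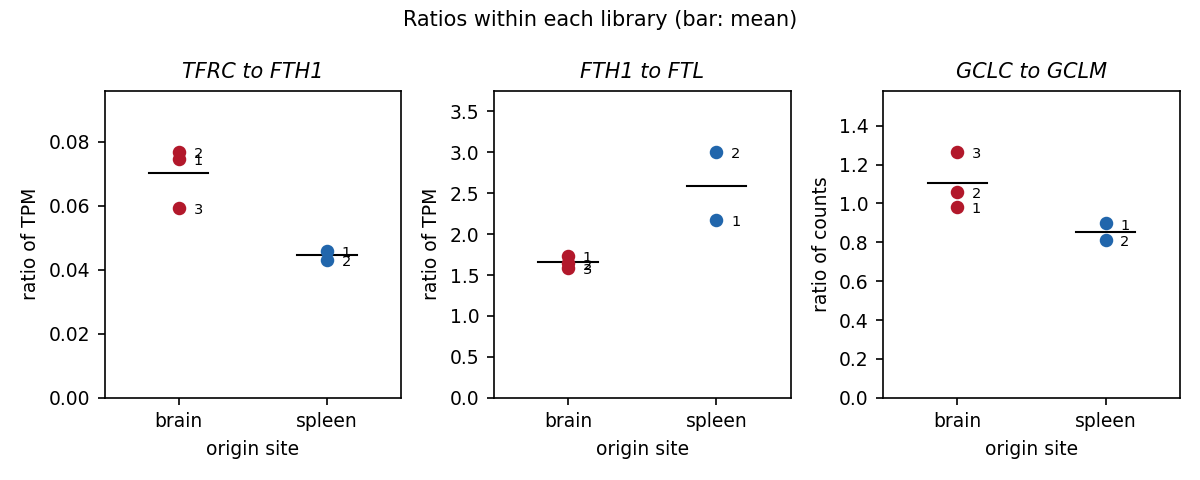
Ratios of TFRC to FTH1 and of FTH1 to FTL (TPM) and of GCLC to GCLM (estimated counts) in each library, numbered by replicate, with bars at the means. Brain and spleen libraries do not overlap in these 3 panels, and the brain libraries of FTH1 to FTL lie within 1.59 to 1.73. GCLC to GCLM does overlap when summed from matched transcripts, which leave out the canonical GCLC transcript.

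The 250 bases upstream of the start (RefSeq, GRCh38.p14) were searched on both strands for TGACNNNGC, the core of the antioxidant response element, and ACGTG, the core bound by hypoxia-inducible factors, for which TFRC is a known target. RefSeq promoters were matched for 7 of the 10 members, and HMOX1, SLC7A11 and FTH1 had no entry. TGACNNNGC occurs in 10.9% of the 35116 promoter windows of that length and ACGTG in 18.5%. TGACNNNGC lay in the GCLM window at -34 to -26 and in both TXNRD1 windows, at -99 to -91 and at -102 to -94 from the start. ACGTG lay in the TFRC window at -88 to -84 and in the FTL window at -11 to -7, and none of the matches overlapped another. The windows of the called members and of FTL follow, with any match in capitals.
NQO1, chr16:69726561-69726810, minus strand: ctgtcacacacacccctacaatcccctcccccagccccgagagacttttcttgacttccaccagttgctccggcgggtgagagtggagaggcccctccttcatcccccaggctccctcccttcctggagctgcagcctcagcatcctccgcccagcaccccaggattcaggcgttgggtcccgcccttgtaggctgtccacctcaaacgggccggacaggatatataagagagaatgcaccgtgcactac
TFRC, chr3:196082091-196082340, minus strand: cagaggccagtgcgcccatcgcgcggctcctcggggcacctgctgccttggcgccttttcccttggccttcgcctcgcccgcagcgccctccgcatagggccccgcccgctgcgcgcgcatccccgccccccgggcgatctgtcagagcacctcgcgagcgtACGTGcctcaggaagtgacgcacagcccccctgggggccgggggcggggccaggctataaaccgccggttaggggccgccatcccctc
FTL, chr19:48965059-48965308, plus strand: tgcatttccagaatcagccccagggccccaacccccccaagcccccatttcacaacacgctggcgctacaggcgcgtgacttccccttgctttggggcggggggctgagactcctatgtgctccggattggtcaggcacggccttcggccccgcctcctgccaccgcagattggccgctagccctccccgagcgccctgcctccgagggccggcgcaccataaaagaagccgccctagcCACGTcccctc

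The NQO1 window held neither motif, which says only that these letters are not within those 250 bases.

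Beyond the members, 119 further genes in 7 lists of the pathway were read, of which 108 were tested and 15 (13.9%) were called, 5 higher and 10 lower in brain, where 9.51% of all genes were called. Their median log2 fold change was -0.17, against 0.0066 over all genes. Of the 15 calls, 2 (BACH1 and GSTZ1) were kept whichever library was left out. Over all genes, leaving out 1 library gave 515 to 871 higher and 146 to 828 lower, against 1228 and 714 with all libraries. All 15 calls were lost with the mouse share as a covariate (lowest edgeR adjusted p 0.0731). That fit called 114 higher and 11 lower over all genes, so most calls of any gene were lost in it.

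**Figure D4:**
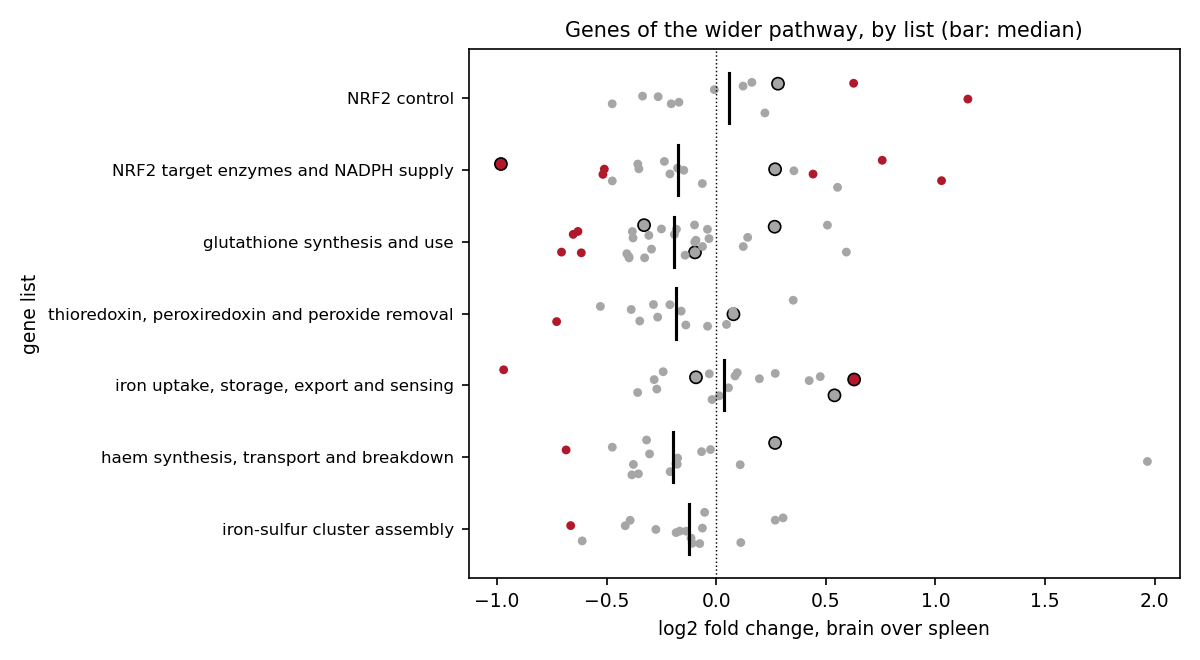
Fitted log2 fold change, brain over spleen, of every tested gene in the 7 lists, with bars at the list medians; red points had an edgeR adjusted p under 0.05 and outlined points are the 10 members. Red points below 0 are 4 for glutathione, 1 for peroxide removal and 1 for iron-sulfur clusters, and the 2 of NRF2 control lie above 0. Over all genes tested, 6.01% were called higher and 3.50% lower.

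Among genes that control NRF2, 2 of 11 besides NFE2L2 were higher in brain and 9 did not pass. BACH1, the repressor that competes with NRF2, was at 50.6 ± 2.52 CPM in brain (SD, n = 3) and 32.7 ± 2.50 in spleen (n = 2), for a log2 difference of 0.63 (adjusted p = 0.0091 by edgeR). MAFF, a small MAF partner, was at 5.06 ± 0.235 CPM in brain and 2.28 ± 0.512 in spleen (log2 fold change 1.15, edgeR adjusted p = 0.0137), but it failed to pass when brain replicate 1 or spleen replicate 1 was dropped (edgeR adjusted p up to 0.0696). For KEAP1, the NRF2 inhibitor, the log2 difference was -0.17 (edgeR adjusted p = 0.343).

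In the list of NRF2 target enzymes and NADPH supply, 3 further genes of 15 tested were higher, 2 lower and 10 did not pass. The higher ones were IDH1, a cytosolic NADPH source (55.8 ± 6.62 CPM in brain, 33.05 ± 7.75 in spleen), ABCC1, an exporter of glutathione conjugates (176 ± 5.69 in brain, 129.8 ± 0.997 in spleen), and AKR1C3, an aldo-keto reductase (6.90 ± 1.11 in brain, 3.39 ± 1.32 in spleen). The lower ones were AKR1B1, aldose reductase (144 ± 6.15 CPM in brain, 205 ± 22.0 in spleen), and ABCC4, an organic anion exporter (12.7 ± 0.818 in brain, 18.1 ± 1.83 in spleen). IDH1 lost its call without brain replicate 1 or 3 or spleen replicate 2, AKR1B1 without brain replicate 1 or 2 or spleen replicate 1, AKR1C3 without any brain library or spleen replicate 2, ABCC4 without any brain library or spleen replicate 1, and ABCC1 without any 1 of the 5 (edgeR adjusted p up to 0.168 over these genes). With the occasion as a block the edgeR adjusted p of AKR1C3 was 0.0744 and that of ABCC4 0.0637, and with summed transcripts they were 0.0575 and 0.157. AKR1C3 had a log2 fold change of 1.03, which was 0.67 without spleen replicate 2 and 0.29 with the mouse share as a covariate. For ABCC4 it was -0.52, and -0.77 with summed transcripts. That of IDH1 was 0.76, and 0.42 with the mouse share as a covariate. AKR1C3 is one of several closely related genes among which reads may be shared, which was not tested. Its relatives AKR1C1 and AKR1C2 held at most 4 and 3 counts in any library, against 124 to 363 for AKR1C3.

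Of the further glutathione genes 4 of 26 were lower and 22 did not pass. GSTP1, the most abundant glutathione transferase of the list per length, averaged 159.7 ± 16.3 CPM in brain and 247 ± 37.5 in spleen. GSTZ1, which acts in tyrosine breakdown, differed by -0.71 on the log2 scale (edgeR adjusted p = 0.0116), and CHAC2, which degrades glutathione, averaged 12.7 ± 1.54 CPM in brain and 19.9 ± 2.13 in spleen. GSTM4, named after its values were seen because it was the remaining call, differed by -0.62 on the log2 scale (edgeR adjusted p = 0.0296, and 0.0591 with the occasion as a block). GSTP1 lost its call without brain replicate 1 or 2 or spleen replicate 1, CHAC2 without brain replicate 2 or 3 or spleen replicate 1, and GSTM4 without any brain library or spleen replicate 1 (edgeR adjusted p up to 0.154). GSS, the enzyme after the GCLC and GCLM step, and GSR, glutathione reductase, had log2 fold changes of -0.18 and -0.41 and did not pass.

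PRDX1, a peroxiredoxin that thioredoxin reduces, was the 1 call among 13 further genes of peroxide removal, at 552 ± 82.1 CPM in brain and 914 ± 129 in spleen (log2 fold change -0.73, edgeR adjusted p = 0.018). PRDX1 did not pass when brain replicate 1 or 2 or spleen replicate 1 was dropped (edgeR adjusted p up to 0.0814). Thioredoxin itself, TXN, was at 34.5 CPM in brain and 49.7 in spleen and did not pass (edgeR adjusted p = 0.0564).

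Of 15 further iron genes, TFR2 was lower and 14 did not pass. TFR2 encodes the second transferrin receptor, which senses iron in liver and erythroid cells, and stood at 4.48, 4.75 and 3.84 CPM in brain, against 7.56 and 9.50 in spleen (log2 fold change -0.97, edgeR adjusted p = 0.0141). TFRC and TFR2 thus had log2 fold changes of opposite sign, with TFRC the more abundant of the receptors in every library. TFR2 did not pass when brain replicate 1 or spleen replicate 2 was dropped (edgeR adjusted p up to 0.0633). IREB2 and ACO1, which encode the iron regulatory proteins, had log2 fold changes of 0.10 and -0.02, and NCOA4, which delivers ferritin for breakdown, had 0.27; these 3 did not pass.

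BOLA3, which helps to hand on iron-sulfur clusters in mitochondria, was the 1 call among 16 genes of cluster assembly, at 16.6 ± 2.27 CPM in brain and 26.3 ± 1.24 in spleen (log2 fold change -0.66, edgeR adjusted p = 0.0172), lost without brain replicate 1 or 2 or spleen replicate 1 (up to 0.0809).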

How the data were processed

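Tools named in the submitters' processing notes, without their order, are kallisto 0.42.4, cutadapt 1.5, bcl2fastq 1.8.4 and DESeq2, with builds GRCh38 and GRCm38. Per the file headers, kallisto gave estimated counts and TPM of human and mouse transcripts in each library, and TPM of a gene was rescaled here to human transcripts alone. Gene values were deposited as estimated counts rounded to integers, and 1 column of no sample was not used. Identifiers were matched to GENCODE 44 (56322 of 65217, with 99.8% of counts), and SOD2 was not analysed here. The values of 1 further called gene of the lists are not reported here.

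Counts were tested with edgeR 4.0.16 in R 4.3.3 (filterByExpr, TMM, quasi-likelihood F test, origin site as the only term, 3 residual degrees of freedom). The fit was also run on simulated data with a single dispersion and 200 genes changed by more than any member. That run does not check the test at changes of the members' size. CPM uses TMM-scaled library sizes, and SE and intervals are on the log2 scale. Alternatives were other scalings and filters, DESeq2 1.42.0, each library left out, the occasion as a block, summed transcripts and the mouse share as a covariate. Ratios and levels per kilobase are descriptions with no test.

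The members and lists were chosen with earlier results of these data known. All members are named, and of each list up to 3 further calls in each direction with the smallest p. Replicate numbers stand for occasions in the labels and so pair brain and spleen replicates 1 and 2, although the spleen columns are numbered 2 and 4, which leaves the pairing uncertain. Their deviations from the group means had correlations of 0.0328 and 0.268 across genes, and brain replicate 3 with spleen replicate 1 had 0.2. With 2 spleen libraries, each brain library has correlations of equal size and opposite sign with them. These values therefore cannot decide the pairing.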

Additional observations from a re-analysis of the deposited data

How the results depend on the processing

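Over 13 alternatives, 122 of 129 member values kept their side of the threshold. NQO1 lost its call in 3 and TFRC in 1, and FTL gained one by the DESeq2 Wald test (adjusted p = 0.04), when low counts were not filtered (edgeR, 0.00084) and without spleen replicate 1. GCLM and SLC7A11, which were not called, had the opposite sign with the mouse share as a covariate (0.07 and 0.14). That fit has 2 terms on 5 libraries: edgeR called 0 members and 0 genes of the wider lists (here with the members, 118 tested, 6 higher and 11 lower in the fit without the covariate) higher or lower (at an unadjusted p under 0.05, 0 members higher and 1 lower, and 4 genes of the lists higher and 20 lower), and over all genes 114 higher and 11 lower, against 1228 and 714. With DESeq2, 2 members were higher, 22 genes of the lists lower and 1292 of all genes lower; with no filter these were 2, 25 and 1337. Leaving out 1 library gave 1 to 2 members higher and 0 to 1 lower, 2 to 6 genes of the lists higher and 2 to 20 lower, and 515 to 871 of all genes higher and 146 to 828 lower. The mouse share difference, brain minus spleen, was -5.23 to -2.69 percentage points when 1 library was left out, an alternative chosen after seeing the data.

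With the replicate block, on the titles' numbers, 1 member was higher (TFRC, log2 fold change 0.62, edgeR adjusted p = 0.0209) and 1 lower (NQO1, -0.93, 0.0326), and it changed no other member's call. Brain replicate 3 is alone in its block, so the site difference in that fit rests on replicates 1 and 2. Ratios of estimated counts in place of TPM gave FTH1 to FTL means of 1.55 in brain and 2.47 in spleen, and TFRC to FTH1 means of 0.42 in brain and 0.251 in spleen, with the sites not overlapping on either scale. No TPM ratio is given for GCLC. HMOX1 was not tested with the 1 CPM filter. Depth limits HMOX1 most, with 30 to 47 counts a library.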

Other observations

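Among human transcript names, 71 occur in more than 1 record of the transcript tables. Those that matched GENCODE 44 belong to 25 genes, and these are the 25 genes with an annotated selenocysteine, TXNRD1, TXNRD2, GPX1 and GPX4 among them. Transcript shares of TXNRD1 are therefore not given.

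The canonical NQO1 transcript held 0.000748%, 14.7% and 7.46% of the gene's TPM in brain libraries 1 to 3, against 7.86% and 25.4% in spleen libraries 1 and 2.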
